A study of Mus musculus with 49 samples.

Results

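The constitutive proteasome subunit genes were the mouse genes whose symbol is Psma, Psmb, Psmc, Psmd, Psme or Psmg with a number, leaving out the immunoproteasome subunits Psmb8, Psmb9 and Psmb10 and the pseudogenes. Of the 45252 genes in the count table, 44 had such a name. A minimum of 10 counts in 10 or more mice was met by 42 of them, and all 42 were among the 18220 genes tested. Psma8 reached 10 counts in 0 mice and Psmb11 in 7 mice, so these testis and thymus forms of the alpha and beta rings were left out. The rule applied to the table used names and a count minimum and no comparison between groups.

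The genes were followed in neocortical RNA of 49 mice, 1 library per mouse, all of the mixed strain C57BL/6J x C3H/HeJ. rNLS8 mice are bigenic: a tetracycline transactivator under the NEFH neurofilament promoter (NEFH-tTA), active in neurons, drives a human TDP-43 that lacks the nuclear localization signal (tetO-hTDP-43ΔNLS) once doxycycline is withdrawn from the chow. Monogenic mice given PBS (ctrl-PBS, n = 17) were compared with bigenic mice given PBS (TDP-PBS, n = 10), peptides 10 and 12 of TDP-43 together (TDP-10+12, n = 10) or the phosphorylated C-terminal peptide 15 (TDP-15, n = 12). Females and males numbered 10 and 7 in ctrl-PBS, 4 and 6 in TDP-PBS, 6 and 4 in TDP-10+12 and 5 and 7 in TDP-15. The main fit held no term for sex. Which of the transgenes the monogenic mice carried is not given in the sources used here. All mice, controls included, had been fed doxycycline until 25.5 weeks, were injected monthly from 8 weeks of age and once after induction, and were killed at 28.5 weeks, which was 3 weeks after withdrawal. Immunized mice received 40 µg of peptide-ovalbumin conjugate in all per injection, with CpG oligonucleotide. Aluminium hydroxide was used in place of the oil adjuvant of an earlier regimen, which held that oil at the first injection only. Whether the boosters held aluminium hydroxide is not stated. The PBS groups received PBS in place of the conjugates, and whether it held adjuvant is not stated. No group analysed here received ovalbumin alone, so peptide and carrier cannot be told apart. Between 17775738 and 21033608 counts were obtained per mouse, and levels are given as CPM, the share of a library's counts scaled by TMM, for which 3 counts correspond to 0.139 to 0.165 CPM. Over all genes, the library farthest from the median of its own group was mouse 137 in ctrl-PBS, mouse 26 in TDP-PBS, mouse 301 in TDP-10+12 and mouse 126 in TDP-15. A second TDP-PBS library, mouse 91, was farther from its group than mouse 126 (median distance 0.148 against 0.141 on the log2 scale). Calls and ratios that change when one of these 5 is left out are given with and without it.

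The proteasome degrades proteins that carry ubiquitin chains. Its 20S core is a barrel of outer alpha rings, which gate the entry, and inner beta rings, which hold the caspase-like, trypsin-like and chymotrypsin-like active sites. The 19S particle caps the barrel with an ATPase base that unfolds the substrate and a lid that removes ubiquitin, while separate activators can open the same gate without ubiquitin. In neurons the complex clears misfolded and short-lived synaptic proteins.

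Promoter sequences are shown for Psmb3, the gene with the largest rise in rNLS8 mice, for Psmc5, the gene with the largest fall, and for Psme1 and Psme2, the genes of the PA28 activator. They are the 250 bases before the transcription start in RefSeq (GRCm38.p6), written 5′ to 3′ on the strand of the gene; capitals mark CCAAT, the box bound by NF-Y, and 2 GAAA repeats with 2 bases between them, a short form of the interferon-stimulated element, on either strand. Psmb3 lies at chr11:97703184-97703433 on the forward strand, Psmc5 at chr11:106255935-106256184 (forward), Psme1 at chr14:55578244-55578493 (forward) and Psme2 at chr14:55591102-55591351 (reverse).
Psmb3: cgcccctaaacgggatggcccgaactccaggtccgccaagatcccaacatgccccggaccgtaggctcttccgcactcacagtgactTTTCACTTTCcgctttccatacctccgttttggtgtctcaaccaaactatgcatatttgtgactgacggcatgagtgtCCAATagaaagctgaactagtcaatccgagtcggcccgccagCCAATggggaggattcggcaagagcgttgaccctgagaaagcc
Psmc5: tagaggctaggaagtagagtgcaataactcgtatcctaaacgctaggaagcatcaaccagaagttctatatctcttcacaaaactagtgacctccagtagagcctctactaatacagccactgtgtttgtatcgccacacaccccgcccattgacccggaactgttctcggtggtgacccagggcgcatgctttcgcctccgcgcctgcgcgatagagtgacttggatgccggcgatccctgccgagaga
Psme1: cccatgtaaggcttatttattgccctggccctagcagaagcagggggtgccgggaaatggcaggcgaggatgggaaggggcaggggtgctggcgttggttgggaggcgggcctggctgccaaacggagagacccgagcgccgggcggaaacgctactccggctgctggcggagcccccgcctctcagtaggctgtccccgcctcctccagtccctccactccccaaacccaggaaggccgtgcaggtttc
Psme2: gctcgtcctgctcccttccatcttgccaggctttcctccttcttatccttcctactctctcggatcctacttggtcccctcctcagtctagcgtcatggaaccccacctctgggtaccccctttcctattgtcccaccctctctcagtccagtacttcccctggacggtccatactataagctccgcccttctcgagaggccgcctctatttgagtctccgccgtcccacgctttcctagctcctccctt
Psmb3 holds CCAAT boxes starting at bases -85 and -43 and the GAAA pair at -163, while the windows of Psmc5, Psme1 and Psme2 hold none of these motifs. In Psme1 a match to the GAAA pair begins at base 10 after the start, outside the printed stretch.

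The members were expressed at moderate and steady levels. Their median in ctrl-PBS mice was 33.2 CPM, against 12.4 CPM for all genes tested, and the median coefficient of variation among ctrl-PBS mice was 8.13%, against 13.9% for all genes tested. Per kilobase of exon, levels within one complex still differed between genes. In ctrl-PBS mice the alpha ring ran from 8.64 CPM per kb for Psma2 to 29.4 CPM per kb for Psma6. The beta ring ran from 15.96 CPM per kb for Psmb5, the chymotrypsin-like subunit, to 90.0 CPM per kb for Psmb6, the caspase-like subunit. The base lay between 12.7 CPM per kb for Psmc6 and 49.02 CPM per kb for Psmc5, and the lid between 14.05 CPM per kb for Psmd13 and 48.1 CPM per kb for Psmd3. The assembly factors, which leave the finished complex, were lower, from 4.08 CPM per kb for Psmg3 to 12.0 CPM per kb for Psmg1. The lowest and highest gene were the same in all 4 groups for every role except the base, in which Psmc1 rather than Psmc5 had the highest level in the 3 rNLS8 groups. Levels per kilobase rest on all annotated exons of a gene, and the isoform in use was not measured. On the same strand, Mir686 covers 12.1% of the Psmb5 exon length and Gm26938 covers 26.8% of that of Psmg3. Reads of these pairs may not be separated.

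In rNLS8 cortex the members moved in both directions. Against ctrl-PBS, the average of the 3 rNLS8 groups was higher for 15 of the 42 members and lower for 11 (quasi-likelihood test of edgeR, p-values adjusted by Benjamini-Hochberg over all genes, threshold 0.05). Over all genes tested, 27.1% were higher and 27% lower in this comparison, 54.2% in either direction. The number of members called was therefore near the background, at 26 of 42. The changes were small. Only 18 members differed by more than 1.1-fold either way, 6 by more than 1.2-fold, 1 by more than 1.3-fold and 0 by more than 1.5-fold, where the same limits were passed by 60.7%, 35.7%, 22.1% and 9.57% of all genes. No genes matched to the members on level were compared. The median log2 fold change of the members was 0.05, against 0.00 over all genes tested. TMM scaling sets the bulk of genes near 0, so the 0.05 is relative to that bulk. Levels in whole tissue do not separate a change in the share of cells of a type from a change in RNA per cell.

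**Figure D1:**
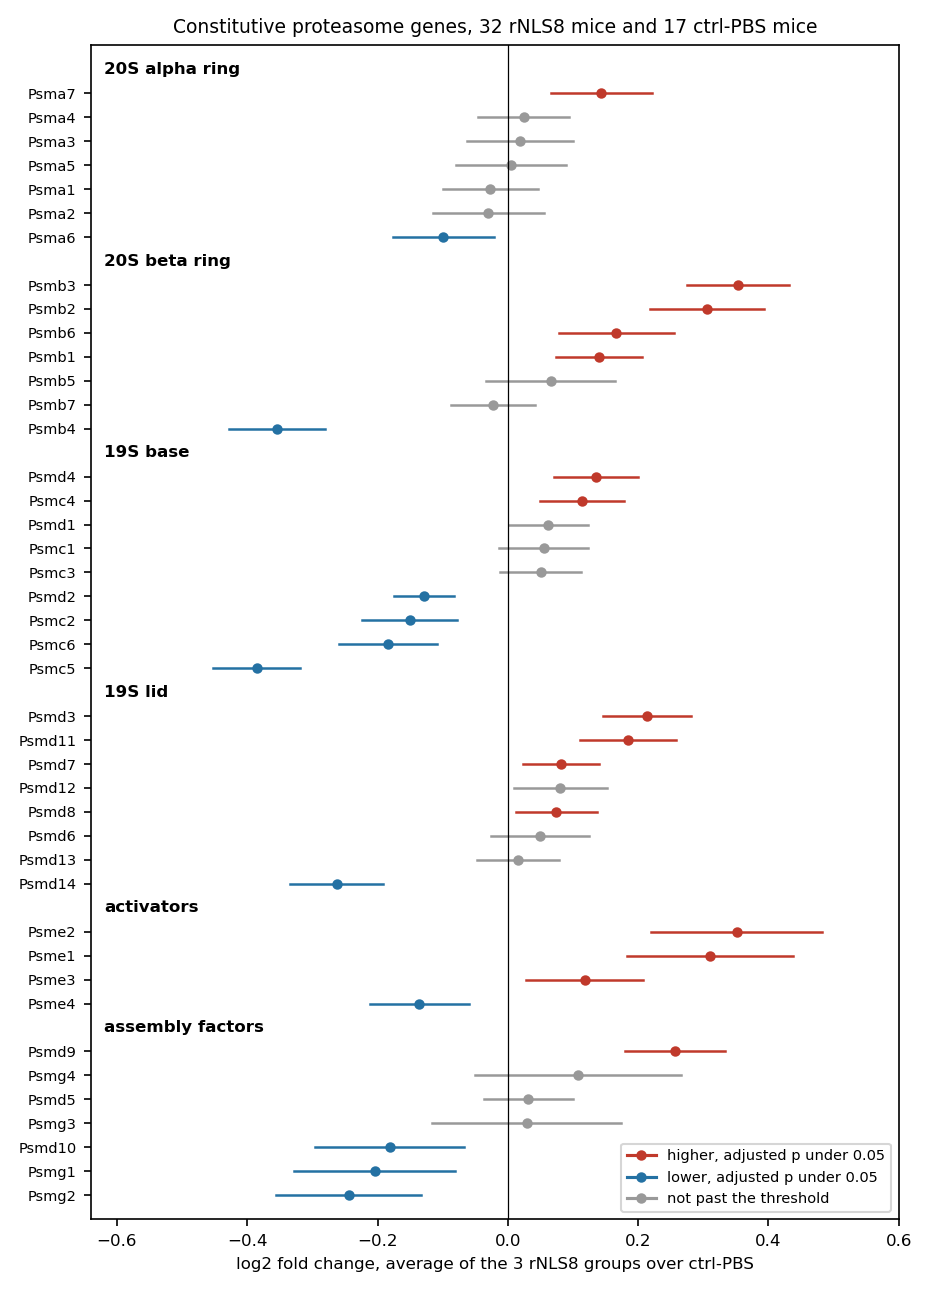
Log2 fold change (horizontal axis) of each of the 42 members in the average of the 3 rNLS8 groups (32 mice) over ctrl-PBS (17 mice), ordered by role and then by size; points are edgeR estimates, lines their 95% confidence intervals, and colour marks the 15 members called higher and the 11 called lower. Every role holds members on both sides, from Psmc5 at -0.39 to Psmb3 at 0.35.

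Summed over the 42 members, the level per mouse was 1762 ± 46.3 CPM (SD, n = 17) in ctrl-PBS, 1820 ± 97.3 CPM (n = 10) in TDP-PBS, 1804 ± 72.7 CPM (n = 10) in TDP-10+12 and 1840 ± 76.7 CPM (n = 12) in TDP-15. The ranges overlapped, since ctrl-PBS mice lay between 1693 and 1841 CPM and TDP-PBS mice between 1695 and 2006 CPM. With division by library totals in place of TMM the ctrl-PBS mean was 1701 CPM, a shift larger than the SD of that group, beside 1841, 1835 and 1881 CPM in the TDP-PBS, TDP-10+12 and TDP-15 groups. No test was run on the sum.

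Markers of cell types moved in the same mice, and their part in the results on the proteasome genes was not tested. The labelled tissue showed its defining neuronal genes, with Slc17a7 at 1867 CPM and Rbfox3 at 456 CPM in ctrl-PBS. Of 8 neuronal markers, 0 were higher and 6 lower in the rNLS8 average, beside 27.1% higher and 27% lower over all genes tested. The same shares stand beside the marker counts that follow, and no test was run on these counts. The summed level of the neuronal markers ran from 6264 to 8036 CPM in ctrl-PBS, 4643 to 5757 CPM in TDP-PBS, 4789 to 5556 CPM in TDP-10+12 and 4847 to 5672 CPM in TDP-15. Of 7 microglial and macrophage markers, 5 were higher and 1 lower, and their sum ran from 185 to 216 CPM, 226 to 315 CPM, 197 to 291 CPM and 198 to 382 CPM in the same order. Of 6 astrocyte markers 1 was higher (Gfap at 1.62 on the log2 scale) and 2 lower, with sums of 1056 to 1368 CPM in ctrl-PBS and 1183 to 2079 CPM over the rNLS8 mice. None of 5 oligodendrocyte and 2 precursor markers was called by edgeR, and 1 of 3 endothelial markers was lower. Of 4 T cell markers 1 was expressed enough to test, Cd4, which was lower at -1.38. The sum ran from 1.90 to 35.5 CPM in ctrl-PBS and from 3.96 to 14.8 CPM in rNLS8 mice. Cd3e, Cd3g and Cd8a were too low to test, so the sum rests mostly on Cd4 and the share of T cells cannot be read from it. Markers of tissue beside the neocortex varied widely between mice, from 18.8 to 401 CPM in sum in ctrl-PBS and from 38.3 to 1660 CPM in rNLS8 mice, with 1 of 6 tested higher and 2 lower. No listed marker was at 0 in every mouse of a group.

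The alpha ring was the steadiest role. Of its 7 genes, 1 was higher and 1 lower in the rNLS8 average, beside 27.1% and 27% of all genes tested. The other 5 did not pass the test. Psma7 rose by 0.14 (log2, SE 0.04, adjusted p = 0.00155, edgeR) and Psma6 fell by 0.10 (SE 0.04, adjusted p = 0.0269, edgeR). The Psma6 call was lost without a filter on low counts, at an adjusted p of 0.0509 by edgeR. Psma5, with a log2 fold change of 0.00 (95% interval -0.08 to 0.09), had the smallest difference of all members, at a median of 20.1 CPM in ctrl-PBS and 19.9 CPM over the 32 rNLS8 mice. Psma3, at 0.02 (interval -0.06 to 0.10), and the lid gene Psmd13, at 0.02 (interval -0.05 to 0.08), were the next smallest. These intervals leave room for differences of at most about the size seen in the called alpha ring genes.

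The beta ring held the largest opposed changes. Psmb3 (chr11:97703434-97713500, GRCm38), a structural beta subunit, had a lowest, median and highest level of 24.3, 28.7 and 32.9 CPM in ctrl-PBS mice. The same values were 29.4, 35.8 and 44.3 CPM in TDP-PBS, 33.9, 35.2 and 39.3 CPM in TDP-10+12, and 32.6, 37.6 and 42.1 CPM in TDP-15. All 10 TDP-10+12 mice, 11 of 12 TDP-15 mice and 7 of 10 TDP-PBS mice were above every ctrl-PBS mouse. The rNLS8 average of Psmb3 was 27.7% higher (log2 0.35, SE 0.04, adjusted p = 5.0e-11, edgeR).

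Psmb4 (chr3:94884324-94886958, GRCm38), which lines the same ring and has no active site, went the other way. Its lowest, median and highest levels were 29.2, 33.3 and 39.9 CPM in ctrl-PBS, 22.8, 25.2 and 32.2 CPM in TDP-PBS, 24.2, 26.6 and 28.8 CPM in TDP-10+12 and 24.6, 27.2 and 30.7 CPM in TDP-15. Of 32 rNLS8 mice, 30 were below every ctrl-PBS mouse, including all 10 TDP-10+12 mice. The rNLS8 average fell by 0.35 on the log2 scale (SE 0.04, adjusted p = 6.6e-12, edgeR), to 26.4 CPM from 33.8 CPM.

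Psmb2 (chr4:126677637-126709715, GRCm38), another structural beta subunit, had levels of 36.3, 42.0 and 54.1 CPM (lowest, median, highest) in ctrl-PBS. They were 45.3, 49.7 and 62.0 CPM in TDP-PBS, 48.3, 54.3 and 68.4 CPM in TDP-10+12 and 46.2, 55.4 and 60.9 CPM in TDP-15. The groups overlapped, with 13 of 32 rNLS8 mice above the highest ctrl-PBS mouse. The rNLS8 average rose by 0.31 on the log2 scale (SE 0.04, adjusted p = 3.5e-08, edgeR).

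Of the 3 genes for catalytic subunits, only Psmb6 was called in the rNLS8 average, and their fold changes were not tested against each other. Psmb6 had levels of 58.7, 71.8 and 86.0 CPM in ctrl-PBS (lowest, median, highest), 56.1, 79.7 and 98.3 CPM in TDP-PBS, 72.3, 82.3 and 92.7 CPM in TDP-10+12 and 73.5, 80.9 and 92.6 CPM in TDP-15. It rose by 0.17 on the log2 scale in the rNLS8 average (SE 0.04, adjusted p = 0.00115, edgeR), and the TDP-PBS mice covered the range of the controls on both sides. Psmb5 was at medians of 14.2, 15.0, 14.4 and 14.7 CPM in ctrl-PBS, TDP-PBS, TDP-10+12 and TDP-15, with a log2 fold change of 0.07 (95% interval -0.03 to 0.16, adjusted p = 0.264, edgeR). Psmb7, the trypsin-like subunit, was at medians of 36.6, 33.3, 36.2 and 37.7 CPM in the same order, with a log2 fold change of -0.02 (interval -0.09 to 0.04, adjusted p = 0.581, edgeR). Exons of Nek6 on the opposite strand cover 34.9% of the Psmb7 exon length, and the strand setting of the counting is not given in the sources used here, so reads of the pair may not be separated. In TDP-PBS over ctrl-PBS the log2 fold changes were 0.11 for Psmb6, 0.12 for Psmb5 and -0.08 for Psmb7. None of these was called (adjusted p = 0.112, 0.138 and 0.126, edgeR). Psmb1, the remaining beta ring gene, rose by 0.14 in the rNLS8 average (SE 0.03, adjusted p = 0.000292, edgeR).

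**Figure D2:**
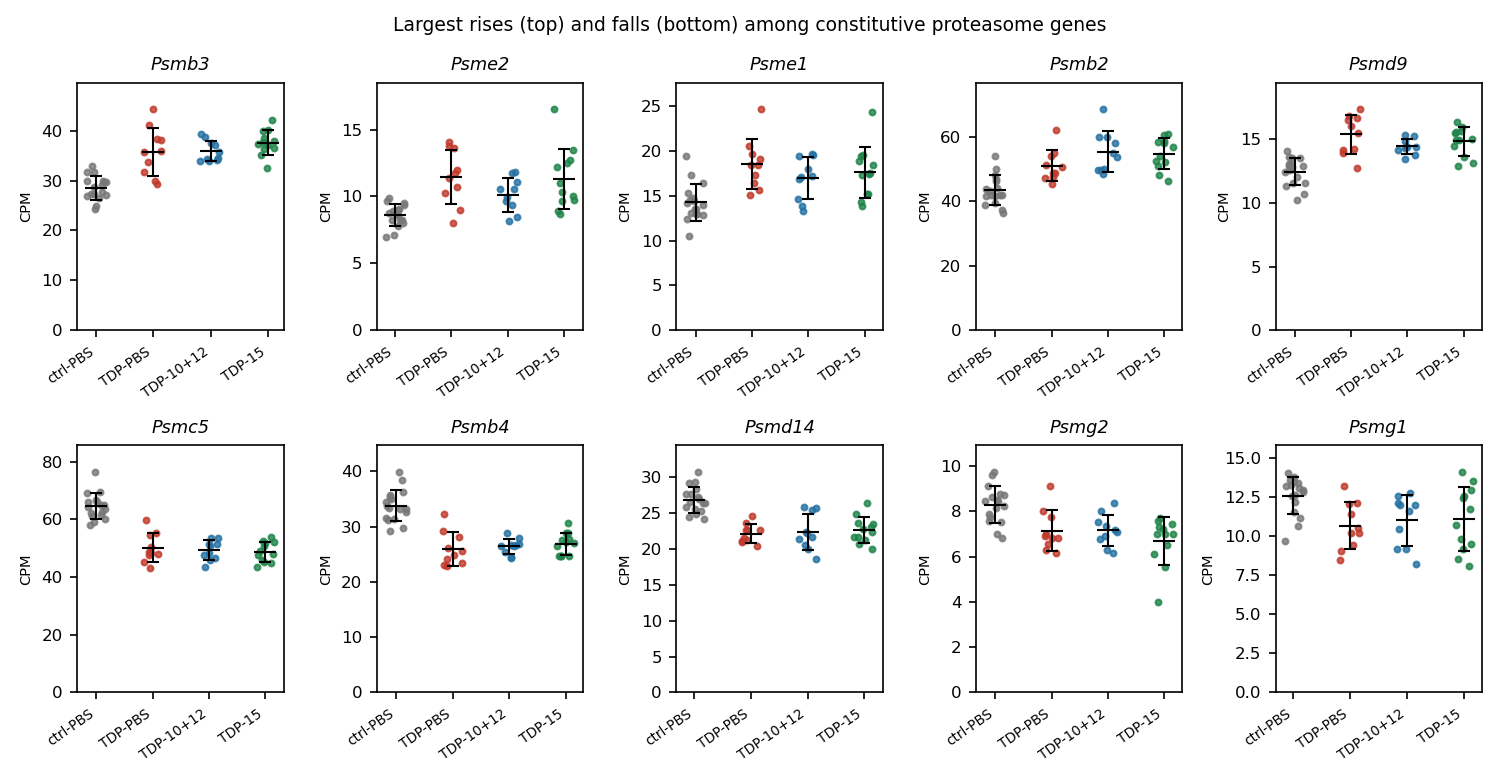
Level of the 5 members with the largest rise (top) and the 5 with the largest fall (bottom) in CPM with TMM scaling (vertical axis, from 0), 1 point per mouse; bars are the mean and SD of each group (17 ctrl-PBS, 10 TDP-PBS, 10 TDP-10+12 and 12 TDP-15 mice). Psmc5 and Psmb4 show the clearest separation from ctrl-PBS, with 31 and 30 of 32 rNLS8 mice below every ctrl-PBS mouse, while Psmg1 overlaps widely.

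In the 19S base, 2 of 9 genes were higher and 4 lower, beside 27.1% higher and 27% lower over all genes tested. Psmc5 (chr11:106256185-106263112, GRCm38), an ATPase of the ring that unfolds substrates, had the largest fall of all members. Its lowest, median and highest levels were 58.0, 64.3 and 76.5 CPM in ctrl-PBS, 43.0, 48.5 and 59.7 CPM in TDP-PBS, 43.4, 49.5 and 53.6 CPM in TDP-10+12 and 43.6, 48.4 and 53.9 CPM in TDP-15. Every TDP-10+12 and TDP-15 mouse, and 9 of 10 TDP-PBS mice, was under the lowest ctrl-PBS mouse. The rNLS8 average was lower by 23.5% (log2 -0.39, SE 0.03, adjusted p = 1.6e-14, edgeR). Its partners in the ATPase ring differed in direction. Psmc6 fell by 0.18 and Psmc2 fell by 0.15, Psmc4 rose by 0.11, and Psmc1 at 0.06 and Psmc3 at 0.05 did not pass the test. Among the non-ATPase genes of the base, the scaffold gene Psmd2 fell by 0.13, the ubiquitin receptor gene Psmd4 rose by 0.14, and the scaffold gene Psmd1, at 0.06, did not pass.

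In the lid, 4 of 8 genes were higher and 1 lower, beside 27.1% higher and 27% lower over all genes tested. The lower one was Psmd14 (chr2:61711694-61800376, GRCm38), which encodes the enzyme that cuts ubiquitin chains off the substrate. Its levels were 24.2, 26.6 and 30.8 CPM in ctrl-PBS, 20.4, 22.1 and 24.7 CPM in TDP-PBS, 18.6, 21.9 and 25.9 CPM in TDP-10+12 and 20.0, 22.6 and 26.4 CPM in TDP-15 (lowest, median, highest). Of 32 rNLS8 mice, 26 were below every ctrl-PBS mouse, and the rNLS8 average fell by 0.26 on the log2 scale (SE 0.04, adjusted p = 1.1e-08, edgeR). The structural lid genes Psmd3, Psmd11, Psmd7 and Psmd8 rose by 0.21, 0.18, 0.08 and 0.07. The last of these calls was lost without a filter on low counts and without the farthest library of each of the 4 groups (adjusted p = 0.0714, edgeR).

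All 4 activator genes passed the test in the rNLS8 average, beside 54.2% of all genes tested, and no test was run on this count. Psme1 (chr14:55578494-55581527, GRCm38) and Psme2 (chr14:55587440-55591101, GRCm38) encode the interleaved subunits of PA28, an activator induced by interferon that favours peptides for antigen presentation. Psme1 had levels of 10.6, 13.9 and 19.5 CPM in ctrl-PBS, 15.1, 18.4 and 24.6 CPM in TDP-PBS, 13.3, 17.1 and 19.6 CPM in TDP-10+12 and 13.9, 17.5 and 24.3 CPM in TDP-15 (lowest, median, highest). The groups overlapped, with 7 of 32 rNLS8 mice above the highest ctrl-PBS mouse, and the rNLS8 average rose by 0.31 (log2, SE 0.06, adjusted p = 4.0e-05, edgeR).

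Psme2 had levels of 6.95, 8.66 and 9.90 CPM in ctrl-PBS, 7.98, 11.6 and 14.1 CPM in TDP-PBS, 8.16, 10.2 and 11.8 CPM in TDP-10+12 and 8.67, 10.6 and 16.5 CPM in TDP-15. Here 22 of 32 rNLS8 mice exceeded every ctrl-PBS mouse, and the rNLS8 average rose by 0.35 (log2, SE 0.07, adjusted p = 1.0e-05, edgeR). The table also lists the near-identical copy Psme2b, with 37 to 172 counts per mouse, so the split of reads between the copies is uncertain. Psme3, which encodes a nuclear relative of the PA28 subunits, was at medians of 142, 159, 147 and 154 CPM in ctrl-PBS, TDP-PBS, TDP-10+12 and TDP-15 and rose by 0.12 in the rNLS8 average (SE 0.04, adjusted p = 0.0225, edgeR). Psme4, which encodes the large activator PA200, was at medians of 34.0, 30.8, 31.1 and 32.1 CPM in the same order and fell by 0.14 (SE 0.04, adjusted p = 0.00194, edgeR).

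Among the 7 assembly factor genes 1 was higher and 3 lower, beside 27.1% higher and 27% lower over all genes tested. Psmd9 (chr5:123228190-123250126, GRCm38), a chaperone of the ATPase ring, had levels of 10.2, 12.8 and 14.1 CPM in ctrl-PBS, 12.8, 15.8 and 17.4 CPM in TDP-PBS, 13.5, 14.4 and 15.3 CPM in TDP-10+12 and 12.9, 15.0 and 16.4 CPM in TDP-15. Of 32 rNLS8 mice, 25 exceeded every ctrl-PBS mouse, and the rNLS8 average rose by 0.26 (log2, SE 0.04, adjusted p = 1.1e-07, edgeR). Psmg1 and Psmg2 encode the chaperone pair that starts alpha ring assembly. Psmg2 had levels of 6.82, 8.44 and 9.74 CPM in ctrl-PBS, 6.15, 6.87 and 9.09 CPM in TDP-PBS, 6.14, 7.13 and 8.34 CPM in TDP-10+12 and 3.98, 7.001 and 7.71 CPM in TDP-15.

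The ranges of Psmg2 overlapped, with 10 of 32 rNLS8 mice under the lowest ctrl-PBS mouse, and the rNLS8 average fell by 0.24 (log2, SE 0.06, adjusted p = 0.000181, edgeR). Psmg1 had levels of 9.66, 12.9 and 14.04 CPM in ctrl-PBS, 8.44, 10.4 and 13.2 CPM in TDP-PBS, 8.20, 11.8 and 12.8 CPM in TDP-10+12 and 8.07, 11.2 and 14.1 CPM in TDP-15. The ranges overlapped almost wholly, and the rNLS8 average fell by 0.20 (SE 0.06, adjusted p = 0.00421, edgeR). Psmd10, another chaperone of the ATPase ring, fell by 0.18. Psmd5, Psmg3 and Psmg4 did not pass, at 0.03 (95% interval -0.04 to 0.10), 0.03 (interval -0.12 to 0.17) and 0.11 (interval -0.05 to 0.27).

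The 3 rNLS8 groups share the ctrl-PBS mice, and their own comparisons are given side by side. TDP-PBS had 13 members higher and 9 lower, beside 21.9% higher and 21.6% lower over all genes tested, or 43.5% in either direction. TDP-10+12 had 10 higher and 9 lower, beside 20.8% and 20%, or 40.8% in either direction. TDP-15 had 14 higher and 7 lower, beside 23.6% and 23.2%, or 46.9% in either direction. The log2 fold changes over ctrl-PBS in TDP-PBS, TDP-10+12 and TDP-15 were 0.33, 0.33 and 0.40 for Psmb3 and -0.37, -0.39 and -0.40 for Psmc5. They were -0.38, -0.36 and -0.33 for Psmb4, 0.23, 0.35 and 0.34 for Psmb2, and -0.28, -0.26 and -0.25 for Psmd14. For the PA28 genes they were 0.38, 0.25 and 0.31 (Psme1) and 0.42, 0.24 and 0.40 (Psme2). All of these passed edgeR's test at an adjusted p under 0.05 in each group. No member separated TDP-PBS from ctrl-PBS without overlap, 3 members did so in TDP-10+12 (Psmb3 above, Psmb4 and Psmc5 below) and 1 in TDP-15 (Psmc5 below), beside 4.89%, 4.82% and 5.53% of all genes tested.

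Some of the weaker calls changed when a single library was left out and the fit was rerun. In TDP-PBS, leaving out mouse 26 ended the call of Psmb1 (log2 0.09, adjusted p = 0.0658, edgeR) and made Psmb7 (-0.11, adjusted p = 0.0156) and Psma6 (-0.14, adjusted p = 0.0187) called lower. Leaving out mouse 91 ended the call of Psme3 (0.12, adjusted p = 0.0881) and made Psma6 (adjusted p = 0.0449) and Psmd10 (adjusted p = 0.0432) called lower, and Psmd1 was called higher without mouse 301 (adjusted p = 0.0444, edgeR). Mice of another group enter such a comparison through the count filter, the TMM factors, the shared estimate of spread and the adjustment over all genes. The fold changes themselves therefore moved. In TDP-15 against ctrl-PBS, Psmc2 was at -0.11 with all mice and at -0.10 without mouse 301, 26 or 91. The median log2 fold change over all genes there moved from -0.0015 to 0.0089, 0.0086 and 0.0087.

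In TDP-10+12, Psmg2 was not called without mouse 301 of that group (-0.18, adjusted p = 0.0554, edgeR). Psmg1, not called with all mice, was called lower there without mouse 301 (adjusted p = 0.0456) or ctrl-PBS mouse 137 (0.0455), and Psma7 was called higher without mouse 26 (0.0435) or 137 (0.0234). In TDP-15, Psme3 was not called without mouse 126 of that group (0.13, adjusted p = 0.0525). Psmc2, called lower in TDP-15, lost its call without mouse 126, 26, 301 or 91 (adjusted p = 0.0582, 0.0641, 0.0653 and 0.0594, edgeR). The opposite held for Psmg1, called lower in TDP-15 without mouse 126 (0.0381) or 137 (0.0411), and for Psmd12, called higher without mouse 301 (0.0341), 26 (0.0375) or 91 (0.0459).

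In the rNLS8 average Psmd12 and Psmd1 were called higher without mouse 301 (adjusted p = 0.0378 and 0.0488, edgeR), mouse 26 (0.0372 and 0.0481) or mouse 91 (0.0276 and 0.0399), and Psmd1 also without mouse 137 (0.0476). With the farthest library of each group left out together, Psmd8 in the average, Psmb1 in TDP-PBS and Psmc2 in TDP-15 lost their calls (adjusted p = 0.0714, 0.0981 and 0.0535). In the same fit Psma6 and Psmb7 were called lower in TDP-PBS (0.0136 and 0.00964), Psmg1 was called lower in TDP-10+12 and TDP-15 (0.0291 and 0.0301), and Psma7 was called higher in TDP-10+12 (0.0359, edgeR).

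**Figure D3:**
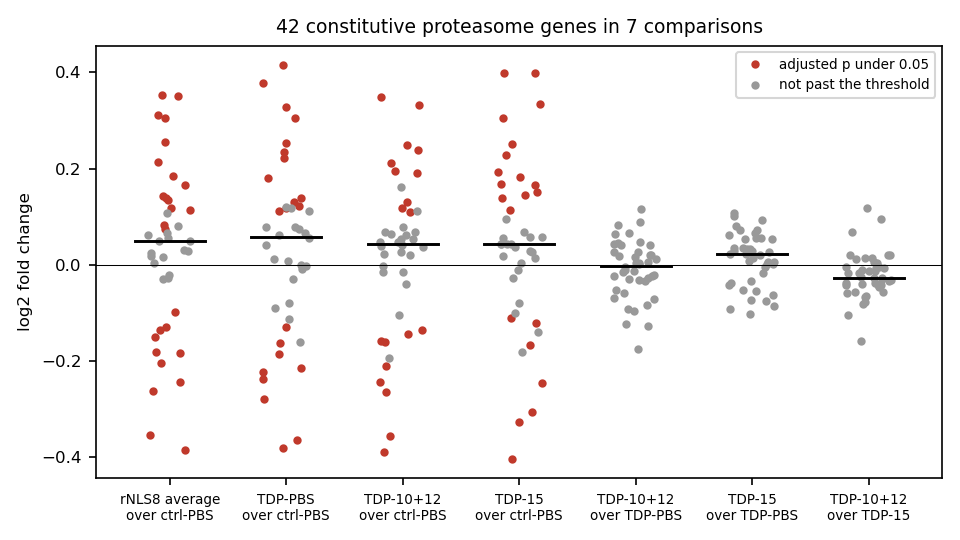
Log2 fold changes (vertical axis) of the 42 members in 7 comparisons (horizontal axis); each point is 1 gene, the line is the median over the 42 genes, and colour marks genes past an adjusted p of 0.05. The comparisons with ctrl-PBS spread from about -0.40 to 0.42 with called genes on both sides, while those between rNLS8 groups stay between -0.18 and 0.12 with none called.

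Peptide immunization was compared with PBS within rNLS8 mice, the comparison by which the study asked whether antibodies alter the disease. Of the 42 members, 0 passed the test in TDP-10+12 against TDP-PBS, in TDP-15 against TDP-PBS or in TDP-10+12 against TDP-15 (edgeR, background 0% in each). DESeq2 and limma-voom also called 0 members in each of the 3. At an unadjusted p under 0.05 there were 1, 1 and 0 members, and 953, 552 and 1244 of all 18220 genes. The 3 members with the smallest p in TDP-10+12 against TDP-PBS were Psmd11, with a log2 difference of -0.12 (95% interval -0.23 to -0.01, unadjusted p = 0.0273, adjusted p = 0.926), Psme2 at -0.18 (interval -0.37 to 0.02) and Psmb2 at 0.12 (interval -0.01 to 0.24). In TDP-15 against TDP-PBS they were Psmb7 at 0.11 (interval 0.02 to 0.20, unadjusted p = 0.0218, adjusted p = 0.9996), Psmb2 at 0.10 (interval -0.02 to 0.22) and Psmd11 at -0.08 (interval -0.19 to 0.02). In TDP-10+12 against TDP-15 they were Psmc4 at -0.08 (interval -0.17 to 0.01), Psme2 at -0.16 (interval -0.34 to 0.03) and Psmd7 at -0.06 (interval -0.14 to 0.02). The interval of Psme2 in TDP-10+12 against TDP-PBS reaches -0.37, where the gene rose by 0.42 in TDP-PBS over ctrl-PBS. A large fall lies inside this interval, though not one as large as that rise.

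The response of the members to the transgenes was also compared between the sexes. The interaction of genotype with sex was called for 0 of 42 members and for 0% of all genes, with 0 members and 661 genes at an unadjusted p under 0.05 by edgeR and 0 members called by DESeq2. The smallest p among the members belonged to Psmg4, whose difference between the sexes in log2 fold change was 0.29 (95% interval -0.03 to 0.60).

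The immunoproteasome genes Psmb8, Psmb9 and Psmb10 encode inducible catalytic subunits that take the place of the products of Psmb5, Psmb6 and Psmb7. Psmb8 had levels of 2.35, 4.19 and 8.31 CPM (lowest, median, highest) in ctrl-PBS, 10.2, 16.1 and 24.99 CPM in TDP-PBS, 8.09, 13.4 and 28.9 CPM in TDP-10+12 and 8.17, 13.2 and 49.2 CPM in TDP-15. Of 32 rNLS8 mice, 30 exceeded every ctrl-PBS mouse. The log2 fold change of the rNLS8 average was 1.74 (SE 0.18, adjusted p = 6.8e-12, edgeR) for Psmb8, 1.43 (SE 0.22, adjusted p = 1.3e-07) for Psmb9 and -0.16 (SE 0.06, adjusted p = 0.0114) for Psmb10. Exons of Tap1 on the opposite strand cover 15.7% of the Psmb9 exon length, and those of Gm20496 cover 11.4% of the Psmb8 exon length.

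Within each library, the ratio of Psmb8 to Psmb5 counts was 0.334 ± 0.134 (SD, n = 17) in ctrl-PBS and 1.09 ± 0.375 (n = 10) in TDP-PBS, 0.997 ± 0.429 (n = 10) in TDP-10+12 and 1.117 ± 0.726 (n = 12) in TDP-15. The TDP-15 mean rests in part on mouse 126, at 3.34, where the other 11 mice lay between 0.620 and 1.37. Without that mouse the TDP-15 ratio was 0.915 ± 0.199 (n = 11), so that its mean passed from the highest to the lowest of the 3 rNLS8 groups. In a two-sided permutation test on log2 ratios, each rNLS8 group differed from ctrl-PBS at an adjusted p of 6e-05 over 18 comparisons (p = 1e-05, the smallest that 100000 permutations can give), by 3.29-fold, 2.98-fold and 3.21-fold (2.88-fold in TDP-15 without mouse 126). Above every ctrl-PBS mouse were 8 of 10, 8 of 10 and 11 of 12 mice. The ratio of Psmb9 to Psmb6 was 0.0258 ± 0.0190 in ctrl-PBS and 0.0596 ± 0.0191, 0.0588 ± 0.0206 and 0.0620 ± 0.0291 in the 3 rNLS8 groups (permutation test, adjusted p = 0.00093, 0.00072 and 0.000495). The ranges overlapped, and 5 rNLS8 mice exceeded the highest ctrl-PBS mouse. In males alone (7 ctrl-PBS, 6 TDP-PBS, 4 TDP-10+12 and 7 TDP-15 mice) these differences did not pass the threshold.

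The third ratio went the other way. Psmb10 to Psmb7 was 0.546 ± 0.0559 in ctrl-PBS, 0.524 ± 0.0548 in TDP-PBS, 0.476 ± 0.0578 in TDP-10+12 and 0.491 ± 0.101 in TDP-15, and was lower in TDP-10+12 (permutation test, adjusted p = 0.00993) but did not pass in TDP-PBS (0.52) or TDP-15 (0.0839). The TDP-15 value turned on mouse 126, whose ratio of 0.744 was the highest of its group. Without it the ratio was 0.468 ± 0.0652 (n = 11) and lower than in ctrl-PBS (log2 -0.23, permutation test, adjusted p = 0.00548). In females alone (10 ctrl-PBS, 6 TDP-10+12 and 5 TDP-15 mice) the TDP-10+12 difference was lost (log2 -0.12, permutation test, adjusted p = 0.32). That of TDP-15 passed (-0.25, permutation test, adjusted p = 0.0491). The Nek6 overlap at Psmb7 applies here too. Between rNLS8 groups the smallest adjusted p of any of the 3 ratios was 0.137 (permutation test, Psmb10 to Psmb7, TDP-10+12 against TDP-PBS).

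**Figure D4:**
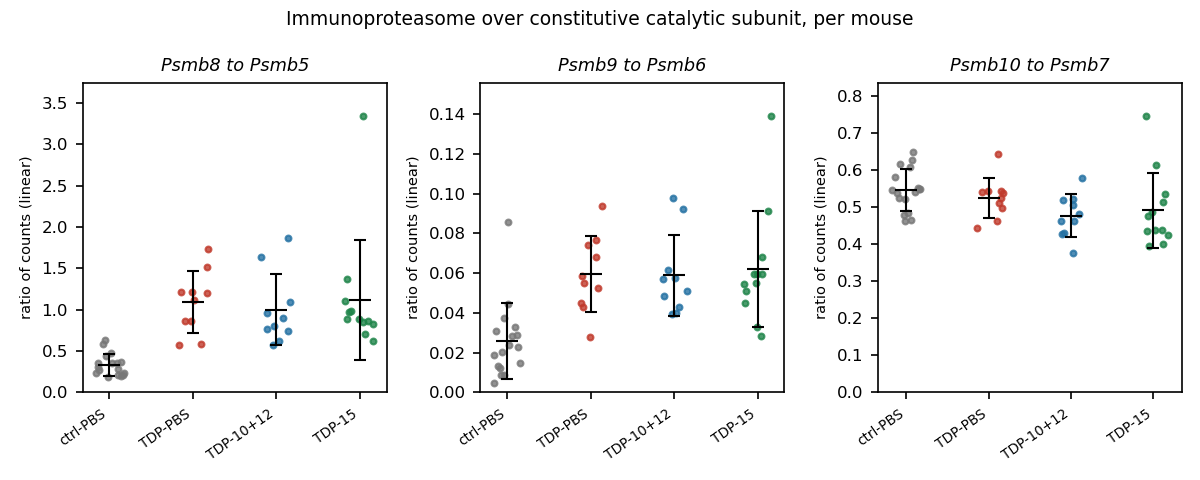
Ratio of the counts of each immunoproteasome gene to those of the constitutive gene whose product it replaces (vertical axis, linear, from 0), 1 point per mouse, with the mean and SD of each group (17 ctrl-PBS, 10 TDP-PBS, 10 TDP-10+12, 12 TDP-15). The Psmb8 to Psmb5 ratio was near 0.334 in ctrl-PBS and near 1 in the rNLS8 groups, while Psmb10 to Psmb7 was between 0.476 and 0.546 in all 4 group means.

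Among rNLS8 mice the level of Psme1, and less firmly that of Psme2, went with Psmb8 from mouse to mouse. This relation was computed after the levels had been seen, for each of the 42 members, on log2 CPM with the mean of each group removed and with permutations within groups. Of 42 members, 2 passed an adjusted p of 0.05 and 8 an unadjusted one, beside a median r of 0.19 over the members. Psme1 had a Pearson r of 0.70 (n = 32, permutation p = 4e-05, adjusted p = 0.00168) and a Spearman rho of 0.66 (permutation p = 0.00014, adjusted p = 0.00588). Without the 2 mice farthest from the median of Psmb8, at 28.9 and 49.2 CPM, r was 0.68. Within the groups, r was 0.80 in TDP-PBS, 0.37 in TDP-10+12 and 0.86 in TDP-15.

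Psme2 had an r of 0.56 (n = 32, permutation p = 0.00148, adjusted p = 0.0311) and a rho of 0.46 (permutation p = 0.0119, adjusted p = 0.167), so the rank measure did not pass. Without the same 2 mice r was 0.44. Members outside PA28 came as close as Psme2. Psmc5, the member with the largest fall, had an r of 0.48 (permutation p = 0.00405, adjusted p = 0.0567) and a rho of 0.48. Without the same mice r was 0.45 for Psmc5, 0.48 for Psmg4 and 0.44 for Psma6. In the 17 ctrl-PBS mice 0 members passed the adjusted threshold and 1 the unadjusted one, with r of 0.10 for Psme1 (permutation p = 0.718) and -0.03 for Psme2 (permutation p = 0.908). The difference in r between ctrl-PBS and rNLS8 mice was not tested. The labels give no batch within which the relation could be recomputed.

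**Figure D5:**
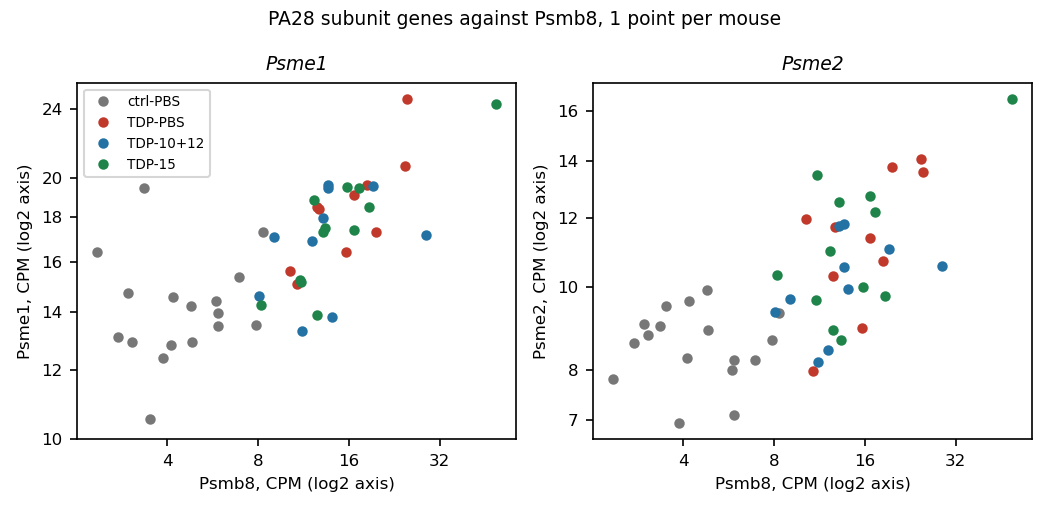
Level of Psme1 (left) and Psme2 (right) against Psmb8, all in CPM on log2 axes, 1 point per mouse, coloured by group (17 ctrl-PBS, 10 TDP-PBS, 10 TDP-10+12, 12 TDP-15). Among rNLS8 mice both genes were higher where Psmb8 was higher (r = 0.70 and 0.56 with group means removed), and no such slope is seen among ctrl-PBS mice (r = 0.10 and -0.03).

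In the wider set, promoters of 250 bases before to 50 after the start were found for 35 of the 42 members and for 27025 genes, and motifs were searched on both strands. TGACNNNGC, the core of the antioxidant response element recognised by Nfe2l1 and Nfe2l2, was present in 6 of 35 members (17.1%) and 13.99% of all genes. CCAAT was present in 12 members (34.3%) and 41.1% of all genes, and TGACGT, the core of the cAMP response element, in 4 members (11.4%) and 8.37%. Chosen after the levels had been seen, TTCNNNGAA, the core of the heat shock element, was present in 2 members (5.71%) and 9.55% of all genes. The GAAA pair was present in 5 members (14.3%), namely Psmb3, Psmd4, Psme1, Psmg4 and Psmd9, and 3.99% of all genes. Of these 5, 4 were called higher in rNLS8 mice and 0 lower, beside 11 higher and 10 lower of all 35 members with a promoter and 27.1% higher and 27% lower of all genes tested. For the other motifs, 4 of the 12 members with CCAAT were higher and 4 lower, 2 of the 6 with TGACNNNGC were higher and 2 lower, 1 of the 4 with TGACGT was higher and 0 lower, and both members with TTCNNNGAA were lower. No test was run on these counts, and the GAAA pair was chosen with the levels of Psme1 and Psme2 known. A match of letters is a description of sequence and not a binding site.

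Genes of the wider ubiquitin and proteasome pathway were also called in both directions, as were all genes tested. Of 36 listed genes, 35 were in the table and tested. In the rNLS8 average 12 were higher, 12 lower and 11 not called, beside 27.1% higher and 27% lower over all genes tested. The same shares stand beside the counts by list that follow, and no test was run on these counts. Among the genes that encode ubiquitin itself, Ubb was higher at 0.08 (log2) and Rps27a at 0.13. Of 13 genes for shuttle factors and the Vcp segregase, 5 were higher and 5 lower, led by Zfand2a at 0.53 and Ufd1 at 0.48 and, on the other side, Ubqln2 at -0.50. Of 4 genes for deubiquitinases and ligases bound to the proteasome, 3 were lower (Ube3c at -0.27, Uchl5 at -0.23 and Usp14 at -0.13).

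Of 6 genes for regulators of proteasome expression, 2 were higher, Nfe2l2 at 0.38 and Syvn1 at 0.24, and 2 lower, Ngly1, whose product processes the Nfe2l1 protein, at -0.26 and Sel1l at -0.11. Nfe2l1, which encodes the factor that raises proteasome genes when the complex is inhibited, was at 301 CPM in both ctrl-PBS and the rNLS8 average, with a log2 fold change of 0.00 (95% interval -0.06 to 0.06). Of 8 other subunit and assembly genes 2 were higher (Sem1 at 0.21 and the inhibitor gene Psmf1 at 0.20) and 2 lower (Akirin2 at -0.29, whose product carries proteasomes into the nucleus, and Fbxo7 at -0.13). Of 2 ubiquitin activating enzyme genes, Uba1 was higher at 0.12 and Uba6, at -0.10, was not called.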

How the data were processed

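Neocortical RNA of 49 mice was sequenced as 100-base paired-end mRNA libraries, 1 per mouse. The authors deposited raw counts per gene and mouse, whole numbers without normalization. The submitters' processing notes name HISAT, HISAT2, Bowtie, Bowtie2, RSEM and mm10 without roles or versions. The strand setting and annotation are not given in the sources used here. All 45252 rows name a gene.

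Groups were taken from the sample labels. Counts were filtered with filterByExpr by group (at least 10 counts, and 15 over all mice) and TMM factors were applied. One model of the 4 groups and 49 mice was fitted with glmQLFit and glmQLFTest in edgeR 4.0.16 (R 4.3.3), two-sided, without covariates, with Benjamini-Hochberg adjustment over 18220 genes. Depth was 17775738 to 21033608 counts per mouse, and intervals and floors cover counting error only where they rest on depth. The gene set, with its members, the gene lists and the tests were chosen with earlier results of these data known, although the rule for members itself uses names and a count minimum. The lists were other proteasome subunits and assembly, deubiquitinases and ligases, regulators, ubiquitin genes, ubiquitin activation, shuttles, immunoproteasome subunits and markers of neurons, astrocytes, microglia, oligodendrocytes, their precursors, endothelium, T cells and neighbouring tissue.

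Members named in full were the 5 with the largest rise and the 5 with the largest fall, the catalytic and activator genes, the 3 with the smallest p in each comparison between rNLS8 groups and the 3 uncalled with the smallest change. Ratios used counts plus 0.5 and permutation tests of log2 ratios (100000 resamples, Python 3.11.15). Exon lengths came from GENCODE (GRCm38), promoters from RefSeq (GRCm38.p6).

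Alternatives were DESeq2 size factors, upper-quartile factors, other filters, limma-voom with quality weights (limma 3.58.1), DESeq2 1.42.0, fits restricted to the compared groups, a sex term, and 2 surrogate variables from sva 3.50.0. Leaving out the mouse farthest from its group in each group, alone and together, and TDP-PBS mouse 91, the Psmb8 correlations and the last 2 motifs were added after seeing the data. In simulated counts a small random part of all genes was changed. For the rNLS8 average (18039 genes), 20.4% of genes changed 1.1-fold and 93.9% of those changed 1.5-fold were recovered, with 6 false calls. For TDP-10+12 against TDP-PBS (18054 genes), 8.33% changed 1.1-fold, 46% changed 1.25-fold and 77.6% changed 1.5-fold were recovered, with 5 false calls. Every mouse is a separate animal, so no libraries were paired. Pathway genes left out of their list are not reported here.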

Additional observations from a re-analysis of the deposited data

Results flagged for a closer look

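In groups of 10 mice, 90 sets of values were tested for a mouse far from the others by Dixon's criterion, and 7 were marked, where chance gives about 1 in 20. TDP-PBS mouse 26 was the highest of its group for 4 genes, with 37.2 CPM for Psma4 (next mouse 31.7), 25.2 CPM for Psma5 (21.0), 77.6 CPM for Psmb1 (64.7) and 43.7 CPM for Psmb7 (36.5). The same library was among the farthest from its own group over all genes, at a distance of 0.173, where the 49 libraries ran from 0.0884 to 0.179. TDP-10+12 mouse 200 was the highest for Psmb1, at 72.8 CPM (next 63.7). TDP-PBS mouse 270 was the lowest for Psmd2, at 84.3 CPM (next 91.3). TDP-PBS mouse 217 had the highest Psmb10 to Psmb7 ratio, 0.644 (next 0.542).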

How the results depend on the processing

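The counts of members called stayed within 1.5 times under each alternative run: 14 to 17 higher and 10 to 11 lower in the rNLS8 average, 11 to 14 and 9 to 12 in TDP-PBS, 9 to 11 and 9 to 10 in TDP-10+12, and 13 to 15 and 6 to 8 in TDP-15. In these 4 comparisons 24 of 26, 20 of 22, 17 of 19 and 19 of 21 called members were called in every alternative, and none changed sign. The calls lost were Psma6 and Psmd8 in the rNLS8 average, Psmb1 and Psme3 in TDP-PBS, Psmd4 and Psmg2 in TDP-10+12, and Psmc2 and Psme3 in TDP-15. Psme3 in TDP-PBS was lost in 6 alternatives, DESeq2, limma-voom and sex as a covariate among them. Members not called in any fit changed sign in some alternative in 2 of 14 cases in the rNLS8 average and in 16 of 42 in TDP-10+12 against TDP-PBS. Counts of 0 between rNLS8 groups and for sex stayed 0. Every fit used TMM, upper-quartile or DESeq2 size factors, and none used library totals. By library totals the members summed to 1701 CPM in ctrl-PBS and 1841, 1835 and 1881 CPM in TDP-PBS, TDP-10+12 and TDP-15. Whether the smaller rises and falls would be called under that scaling was not tested.

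In males alone the log2 difference of the Psmb9 to Psmb6 ratio was 0.842 in TDP-PBS (adjusted p = 0.18), 0.993 in TDP-10+12 (0.18) and 0.822 in TDP-15 (0.193, permutation tests). In females alone the Psmb10 to Psmb7 difference was -0.12 in TDP-10+12 (adjusted p = 0.32) and -0.246 in TDP-15 (0.0491, permutation tests). Leaving out the outlying libraries one at a time, or the farthest of each group together, the Psmb10 to Psmb7 difference in TDP-15 ran from -0.226 to -0.158, and it passed where mouse 126 was left out: -0.226 (adjusted p = 0.00548) alone and -0.215 (0.00805) with mice 26, 137 and 301. The cause was not tested, and fewer mice entered these tests. A fit of only the groups compared is not a separate fit for the rNLS8 average, and sex as a covariate was not run for the interaction, which holds it. No paired analysis was possible because every mouse is a separate animal with its own number. In simulated data, changes near 1.1-fold were seldom recovered, and 77.6% of 1.5-fold changes were in TDP-10+12 against TDP-PBS. The simulation changed only a small part of all genes, which makes the adjusted threshold stricter than in the comparisons with ctrl-PBS. It also drew genes of any spread, where the members varied less (8.13% against 13.9% in ctrl-PBS). Its rates therefore do not give the recovery of the members.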
